A study of Labrus bergylta with 77 samples.

Results

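The genes described here build the antigen receptor of T cells, pass on its first signal, or mark T-cell lineages. They were taken from the deposited expression table of ballan wrasse (Labrus bergylta), a marine fish, as the rows with the identifier Tcra or Tcrd and every row named CD3G, CD3E, CD247, Lck, ZAP70, CD4, CD8A or FOXP3, with upper and lower case treated alike. The rule found 9 of the 29932 rows of the table. Tcra, Tcrd, CD3G (LABE_00037000), Lck (LABE_00038199), ZAP70 (LABE_00004857), CD4 (LABE_00045679) and FOXP3 (LABE_00009493) had 1 row each, and CD247 had 2 (LABE_00063854 and LABE_00076159). CD3E and CD8A were not analysed here, and gene positions and sequences were not used here.

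T cells recognise antigen through a receptor made of alpha and beta chains, encoded in part by Tcra, or of gamma and delta chains, for which Tcrd encodes the delta chain. The receptor itself has no signalling tail, so it is paired with the CD3 chains, of which CD3G is one, and with the zeta chain encoded by CD247. When antigen binds, the kinase Lck, which is carried by the co-receptors CD4 and CD8, phosphorylates these chains, and the kinase ZAP70 docks on them and passes the signal on. FOXP3 is the transcription factor that defines regulatory T cells in mammals. In bony fish, as in mammals, T cells mature in the thymus, which lies beside the gill chamber, and then spread to mucosal and lymphoid tissue, so that in whole larvae these transcripts come from all of those places together.

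RNA was measured in 77 pools of whole larvae from a study of early diet and lymphoid development. All larvae came from 1 brood stock. The 5 BW0 pools were taken from incubators at 4 days post hatch (dph), before feeding, at 4 mm, and their RNA was extracted with TRIzol, whereas all later stages were extracted with QIAzol. At 4 dph larvae went into 6 tanks. Control larvae lived in tanks B6, B8 and B10 and ate rotifers and Artemia, while plankton larvae lived in B5, B7 and B9 and ate zooplankton. From BW2 on, each tank gave 2 pools at every stage. Sampling took place at 9 dph for BW2 in either diet, and control and plankton larvae respectively at 16 and 18 dph at BW3, 26 and 28 dph at BW4 and 36 and 41 dph at BW5, and both at 58 to 59 dph at BW6 and at 79 to 80 dph at BW7. Mean lengths in control and plankton pools were 4.33 and 4.2 mm at BW2, 5.87 and 5.97 mm at BW3, 7.23 and 7.17 mm at BW4, 10.3 and 10.3 mm at BW5, 16.3 and 16.3 mm at BW6 and 27.2 and 27.3 mm at BW7. Dry feed was first given at 40 dph and replaced all other feed at 56 dph. At BW5 it had therefore been offered to the plankton group alone, and at BW6 and BW7 a diet difference compares earlier diets.

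Levels are in TPM, a scale of transcript abundance that corrects for transcript length and sums to 1000000 in every library, so the depth of the libraries is unknown. Between 14958 and 19641 genes reached 1 TPM in a pool. By the correlation of whole profiles, 9 pools lay closer to another group than to their own. Among them were both B9 pools at BW5, pool R2 of B9 at BW6 and both B7 pools at BW7. Some of the results that rest on them are also given without them, but the diet differences at BW5 are given only with them. A stage or diet difference is a difference of log2(TPM + 1), tested with limma over tank means in 1 fit of 22028 genes. It is called where p, adjusted by the Benjamini-Hochberg method, lies under 0.05. This scale understates the change of genes with low levels. In bulk RNA of whole larvae, fewer cells of a type and less RNA per cell cannot be told apart.

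Apart from CD247 LABE_00076159, the T-cell receptor genes had stage means under 0.5 TPM through BW4. At BW5, 4 of the 9 rows were called higher, against 10.6% of all genes. All rose between BW5 and BW6, when mean length went from 10.3 to 16.3 mm. Larvae were 36 dph (control) or 41 dph (plankton) at BW5 and 58 to 59 dph at BW6. Dry feed replaced all other feed at 56 dph, between these stages. Length, age and feed cannot be told apart at this step. All 9 rows were called higher at BW6 than at BW5, where 18.1% of all genes were. From BW6 to BW7, 7 rows rose and 1, Tcrd, fell, against 11.6% and 25.4% of all genes. Apart from Tcrd and CD247 LABE_00076159, each row passed the filter on low values only through BW6 and BW7, so the size of these shares rests partly on that filter. Tank ranges of BW5 and BW6 did not overlap in 8 of the 9, against 20.6% of all genes, the exception being a copy of CD247. From BW2 to BW7 all 9 were called higher, against 34.7% of genes.

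**Figure D1:**
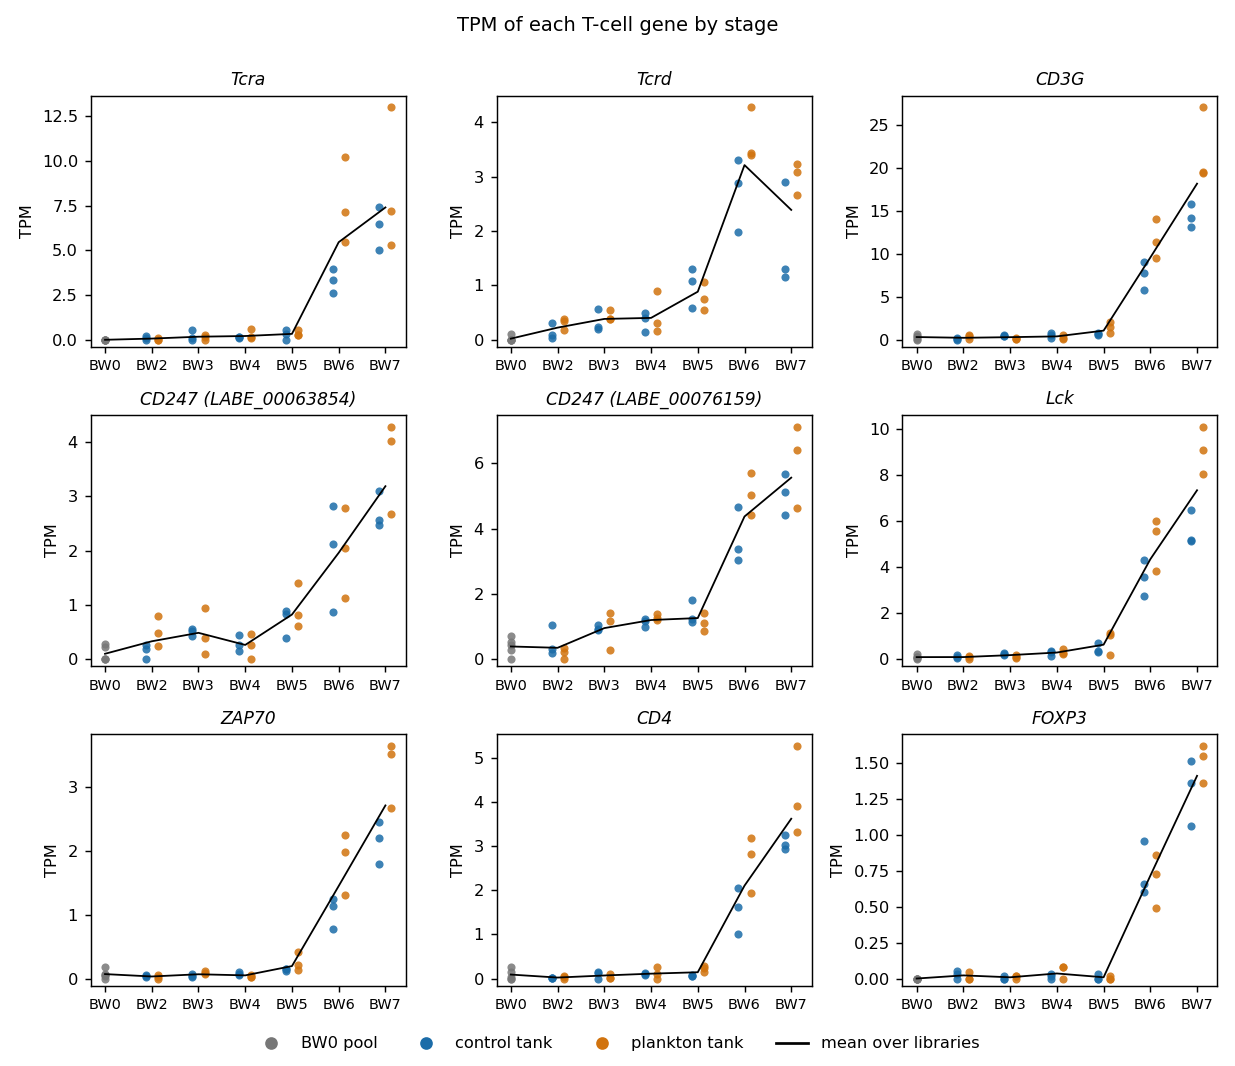
TPM of the 9 rows at each stage, with 1 point per tank (mean of 2 pools) or per BW0 pool and a line through the mean over libraries. CD3G reached the highest level, 18.2 TPM at BW7, and Tcrd is the row whose mean was lower at BW7 than at BW6.

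Tcra, the alpha chain gene, was listed at 0 in all 5 BW0 pools, in 9 of 12 pools at BW2, in 6 at BW3, in 4 at BW4 and in 5 at BW5. Its tank levels at BW5 ran from 0 over a median of 0.297 to 0.569 TPM. At BW6 they ran from 2.65 over 4.71 to 10.2 TPM. No tank at BW6 was as low as any tank at BW5, and the difference was 2.18 ± 0.15 (SE, adjusted p = 5.97e-13). At BW7 the tanks lay between 5.02 and 13 TPM with a median of 6.84 TPM. The step from BW6 to BW7 was smaller, 0.45 ± 0.15 (adjusted p = 0.0175), with 5 of 6 tanks higher. It was no longer called without tank B8 (adjusted p = 0.123), B9 (0.0648) or B10 (0.0652), or without the pools that lay closer to another group (difference 0.19, adjusted p = 0.309). It was also lost with a pseudocount of 0.1 TPM (adjusted p = 0.304) and with only the groups compared in the fit (0.0888).

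Tcrd, the delta chain gene, came up earlier and then turned. At BW2 it was listed at 0 in 5 of 12 pools, at BW3 in 1, at BW4 in 2 and at BW5 in none. Tank levels were 0.147 to 0.899 TPM at BW4, with a median of 0.359 TPM. They were 0.541 to 1.30 TPM at BW5, with a median of 0.904 TPM. This early rise was called (0.43 ± 0.13, adjusted p = 0.00538), with 5 of 6 tanks higher, but not without tank B5 (adjusted p = 0.0521) or B7 (0.0664). At BW6 the tanks stood at 1.98 to 4.27 TPM, all above every tank of BW5, with a difference of 1.14 ± 0.13 (adjusted p = 1.35e-08).

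From BW6 to BW7 Tcrd fell in 5 of 6 tanks. In control tanks it went from 3.31 to 1.31 TPM in B6 and from 2.87 to 1.15 TPM in B8, while B10 went from 1.98 to 2.90 TPM. In plankton tanks it went from 3.41 to 3.24 TPM in B5, from 3.43 to 3.08 TPM in B7 and from 4.27 to 2.65 TPM in B9. The largest drops were thus in B6, B8 and B9, and the tank ranges of the stages overlapped. Over all tanks the difference was -0.35 ± 0.13 (adjusted p = 0.0304), with every alternative fit in the same direction. The call was lost without tank B6 (adjusted p = 0.203), B7 (0.0687), B8 (0.16) or B9 (0.126), and when libraries were rescaled by size factors (difference -0.27, adjusted p = 0.0754), with a pseudocount of 0.1 TPM (0.247) or with only the groups compared (0.0615).

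The balance of these receptor genes therefore turned over within each tank. At BW5, Tcrd was above Tcra in all 6 tanks, and the log2 ratio of Tcra to Tcrd, with 0.1 TPM added to each, was -1.35 ± 0.75 (SD, n = 6 tanks). At BW6 it was 0.63 ± 0.56, with Tcra above Tcrd in 5 of 6 tanks, B8 being the exception. At BW7 it was 1.62 ± 0.68, with Tcra above Tcrd in all 6. The ratio rose in 6 of 6 tanks at both steps, by 1.99 ± 0.43 from BW5 to BW6 and by 0.987 ± 0.998 from BW6 to BW7. Each step gave p = 0.03125 in an exact two-sided sign-flip permutation test, and 0.03125 after adjustment over the 2 tests, which is the smallest p that 6 tanks allow. The second step was uneven: it was 2.71 in B8 and 0.02 in B5, and its mean was 0.64 without B8. At BW2, BW3 and BW4, Tcra was above Tcrd in 0, 1 and 2 of 6 tanks, but both genes were then below 1 TPM in every tank and the ratio rests on values near 0. At BW5 Tcra too was below 1 TPM in every tank, and in B8, with a log2 ratio of -2.77, it was at 0. The size of the first step therefore depends on the amount added. With 1 TPM in place of 0.1 TPM its mean was 1.03.

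**Figure D2:**
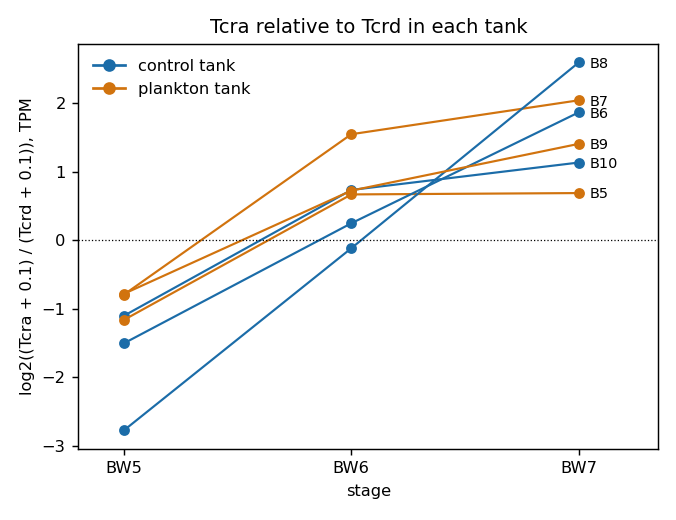
Log2 ratio of Tcra to Tcrd at BW5, BW6 and BW7, with 1 line per tank and a dotted line where the levels are equal. All 6 tanks lie below the line at BW5, 5 lie above it at BW6 and all 6 at BW7.

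CD3G, the CD3 chain, was the most abundant of the 9 rows from BW6 on. Its tanks stood at 0.126 to 0.818 TPM at BW4, with a median of 0.352 TPM. At BW5 they stood at 0.579 to 2.10 TPM, with a median of 0.768 TPM. This rise was called (0.52 ± 0.14, adjusted p = 0.00217) and 5 of 6 tanks showed it. At BW6 the tanks ranged from 5.78 over 9.26 to 14.1 TPM, and at BW7 from 13.1 over 17.6 to 27.1 TPM. The groups did not overlap between BW5 and BW6, where the mean was 8.98 times higher (difference 2.37 ± 0.14, adjusted p = 8.58e-15). Between BW6 and BW7 all 6 tanks went up, the mean by 1.90 times (0.85 ± 0.14, adjusted p = 9.20e-06), a call that was lost with a pseudocount of 0.1 TPM (adjusted p = 0.0614).

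The rows of CD247, the zeta chain, followed different courses in the table. LABE_00076159 was the only row of the 9 called higher at BW3 than at BW2 (0.54 ± 0.15, adjusted p = 0.0020), a step at which 63.3% of all genes were called higher. It stood at 0.268 to 1.42 TPM in the tanks at BW3, at 0.991 to 1.39 TPM at BW4 and at 0.856 to 1.80 TPM at BW5, so it was level over these stages. LABE_00063854 stood at 0 to 0.457 TPM at BW4 and at 0.394 to 1.40 TPM at BW5, higher in all 6 tanks (0.48 ± 0.17, adjusted p = 0.0186). That call was lost without tank B7 (adjusted p = 0.0807) or B10 (0.0759). From BW5 to BW6, LABE_00076159 rose by 1.24 ± 0.15 (adjusted p = 5.76e-08) to 4.37 ± 1.01 TPM (SD, n = 6 tanks) and LABE_00063854 by 0.70 ± 0.17 (adjusted p = 0.00108) to 1.96 ± 0.82 TPM, with 5 of 6 tanks higher and ranges that overlapped. At BW7 they reached 5.56 ± 1.05 and 3.19 ± 0.78 TPM. The last step was called for LABE_00063854 (0.50 ± 0.17, adjusted p = 0.0192), though not without tank B5 (adjusted p = 0.0708) or B6 (0.119) or without the pools closer to another group (0.0578), with a pseudocount of 0.1 TPM (0.192) or with only the groups compared (0.0675), and not for LABE_00076159 (0.27 ± 0.15, adjusted p = 0.16).

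The division between these rows varied widely from pool to pool, so each row alone is uncertain where reads could be split between near-identical copies. The share of CD247 in row LABE_00063854 ran from 0 to 80.4% over the 12 pools at BW5, from 1.49 to 55.9% at BW6 and from 13.2 to 74.0% at BW7. Between the pools of a tank, the rows moved in opposite directions in 14 of 18 cases at BW5 to BW7. In tank B5 at BW6, for example, pool R1 had 2.14 and 4.39 TPM and pool R2 had 0.11 and 7.04 TPM of LABE_00063854 and LABE_00076159. Their sum was steadier: its coefficient of variation over pools at BW6 was 18.2%, against 49.4% and 33.6% for the rows. Summed, CD247 was at 2.08 ± 0.54 TPM at BW5, 6.33 ± 0.80 TPM at BW6 and 8.75 ± 1.34 TPM at BW7 (SD, n = 6 tanks). When the sum was fitted as a row of its own, it rose at BW3 (0.55 ± 0.10, adjusted p = 1.61e-05), BW5 (0.31 ± 0.10, adjusted p = 0.0103), BW6 (1.26 ± 0.10, adjusted p = 1.56e-11) and BW7 (0.39 ± 0.10, adjusted p = 0.00222).

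**Figure D3:**
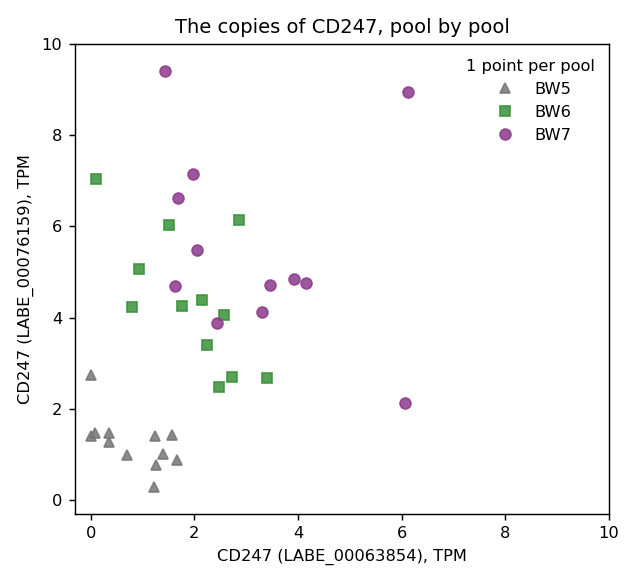
TPM of the CD247 rows against each other, with 1 point per pool at BW5, BW6 and BW7. Within a stage, pools high in one row tend to be low in the other, while pool R2 of B7 at BW7, with 6.13 and 8.94 TPM, is high in both.

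The kinases were low until BW5 and high at BW6 and BW7. Lck, which starts the signal, stood at 0.118 to 0.422 TPM in the tanks at BW4 and at 0.175 to 1.14 TPM at BW5. This step was called (0.31 ± 0.11, adjusted p = 0.027), but the tanks were uneven. At BW5 the plankton tanks B5 and B7 had 1.06 and 1.14 TPM and B9 had 0.175 TPM. The call was lost without B5 (adjusted p = 0.13), B7 (0.102), B8 (0.0814) or B10 (0.0952). With 1 tank left out the difference was 0.24 to 0.42. The call was also lost without pool R2 of B7 at BW7 (0.0593). That pool is in neither stage, and the difference stayed at 0.31. At BW6 Lck ranged from 2.76 over 4.07 to 6.02 TPM, above every tank of BW5 (1.72 ± 0.11, adjusted p = 3.08e-13). At BW7 it ranged from 5.13 over 7.25 to 10.1 TPM, higher in all 6 tanks (0.60 ± 0.11, adjusted p = 0.000104), and this call too was lost with a pseudocount of 0.1 TPM (adjusted p = 0.0746).

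ZAP70, which relays the signal, had a lower mean than Lck at every stage. Its tanks lay at 0.0164 to 0.0968 TPM at BW4 and at 0.122 to 0.409 TPM at BW5. These ranges did not overlap, as for 37% of all genes at this step, and the small difference on this scale missed the threshold (0.18 ± 0.08, adjusted p = 0.0566). At BW6 it ranged from 0.777 over 1.28 to 2.25 TPM (1.01 ± 0.08, adjusted p = 1.06e-11) and at BW7 from 1.80 over 2.56 to 3.65 TPM (0.59 ± 0.08, adjusted p = 5.62e-07). All 6 tanks were higher at each of these steps.

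The lineage genes CD4 and FOXP3 were not called higher at any step before BW6. CD4, the co-receptor of helper T cells, stood at 0 to 0.262 TPM at BW4 and at 0.0534 to 0.287 TPM at BW5, a step that was not called (0.04 ± 0.09, adjusted p = 0.746). At BW6 it ranged from 1.003 over 1.99 to 3.19 TPM, a mean 14.8 times that of BW5 (1.40 ± 0.09, adjusted p = 2.70e-13). At BW7 it ranged from 2.94 over 3.28 to 5.27 TPM (0.58 ± 0.09, adjusted p = 9.36e-06). FOXP3 was listed at 0 in 10 of 12 pools at BW5, and the remaining pools had 0.0341 and 0.0697 TPM. At BW6 every pool had a value above 0 and the tanks lay at 0.491 to 0.960 TPM (0.75 ± 0.06, adjusted p = 3.35e-11). At BW7 they lay at 1.07 to 1.62 TPM, above every tank of BW6, which held for no other row of the 9, where 22% of all genes did not overlap in either direction (0.49 ± 0.06, adjusted p = 2.01e-07).

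Of the other early steps, none of the 9 rows was called higher in limma from BW0 to BW2, where 3.80% of genes were, or from BW3 to BW4, where 6.26% were, and no row had an unadjusted p under 0.05 in either. From BW4 to BW5 the called rows were the 4 described above (CD3G, Lck, Tcrd and LABE_00063854 of CD247), against 10.6% of all genes called higher and 39.1% called lower. That count was 1 with tank B7 left out, 2 without B5 or B10 and 5 without the pools that lay closer to another group. With size factors it was 5, while the share of calls that were higher over all genes went from 21.4% to 61.3%.

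Because TPM is per length, the levels of different rows can be set side by side. At BW6 the order of means was CD3G (9.58 TPM), Tcra (5.46), CD247 LABE_00076159 (4.37), Lck (4.34), Tcrd (3.21), CD4 (2.10), CD247 LABE_00063854 (1.96), ZAP70 (1.45) and FOXP3 (0.717). The ranges of every neighbouring pair overlapped. CD3G was nonetheless above Tcra in all 6 tanks, Tcrd above CD4 in all 6, and ZAP70 above FOXP3 in all 6, whereas Lck and LABE_00076159 changed places from tank to tank. At BW7, CD3G (18.2 TPM) was clear of Tcra (7.41 TPM) in range as well, and Tcrd (2.39 TPM) had dropped below CD4 (3.62 TPM), LABE_00063854 (3.19 TPM) and ZAP70 (2.72 TPM). Tcra and Lck (7.33 TPM) were level, with Tcra higher in 2 of 6 tanks. This order is of rows, not genes. Summed over its rows, CD247 had a mean of 6.33 TPM at BW6 and 8.75 TPM at BW7. Both means were above those of Tcra and below those of CD3G, and the tank ranges of the sum and Tcra overlapped.

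Early diet was the second comparison of the study. At BW6, 2 of the 9 rows were called higher in plankton tanks, Tcra and ZAP70, against 0.518% of all genes, and 7 of 9 differences were positive. Tcra stood at 2.65, 3.36 and 3.95 TPM in control tanks and at 5.47, 7.13 and 10.2 TPM in plankton tanks, with no overlap (0.95 ± 0.21, adjusted p = 0.0174). ZAP70 stood at 0.777, 1.13 and 1.25 TPM in control tanks and at 1.30, 1.99 and 2.25 TPM in plankton tanks (0.46 ± 0.11, adjusted p = 0.0341). The gap between the highest control and the lowest plankton tank of ZAP70 was therefore narrow. Groups did not overlap in 4 of the 9 rows, the others being CD3G and Tcrd, against 12.4% of all genes.

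The calls at BW6 changed with single tanks and with the settings. The Tcra call was lost without tank B7 (adjusted p = 0.0879), B8 (0.164), B9 (0.0593) or B10 (0.0974), and the ZAP70 call without B6 (0.43), B7 (0.312), B8 (0.144), B9 (0.115) or B10 (0.0773). With a pseudocount of 0.1 TPM the adjusted p was 0.641 for Tcra and 0.476 for ZAP70, with only the groups compared in the fit it was 0.256 and 0.588, and for ZAP70 it was 0.0528 without the pools whose titles are spaced differently. Both calls were kept without B5, where CD4 was called as well. Without the pools that lay closer to another group, 4 rows were called: Tcra (1.13, adjusted p = 0.00112), ZAP70 (0.53, adjusted p = 0.009), CD4 (0.60, adjusted p = 0.0145) and CD3G (0.67, adjusted p = 0.0453). At BW6 this left out pool R2 of plankton tank B9, which correlated at 0.9684 with control pools and at 0.9683 with its own group. Dropping plankton pools because they resemble control pools can itself widen a diet difference, so these 4 calls are no check of it. CD4 stood at 1.003, 1.63 and 2.05 TPM in control tanks and at 1.94, 2.81 and 3.19 TPM in plankton tanks, and in the full data its difference was 0.50 ± 0.13 (adjusted p = 0.0654). Without tank B5 its difference was 0.65 (adjusted p = 0.0159). CD3G stood at 5.78, 7.74 and 9.04 TPM against 9.48, 11.4 and 14.1 TPM (0.56 ± 0.19, adjusted p = 0.241). FOXP3 showed no such gap, with 0.739 ± 0.193 TPM in control and 0.694 ± 0.187 TPM in plankton tanks (SD, n = 3 each).

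At BW7 no row was called in limma, against 0.0726% of all genes called higher, although all 9 differences were positive and 5 of 9 rows had an unadjusted p under 0.05, as 2.67% of all genes did in the same direction. Lck stood at 5.13, 5.18 and 6.48 TPM in control tanks and at 8.03, 9.08 and 10.1 TPM in plankton tanks (0.54 ± 0.16, adjusted p = 0.397). CD3G stood at 13.1, 14.2 and 15.8 TPM against 19.4, 19.5 and 27.1 TPM (0.52 ± 0.19, adjusted p = 0.856). Groups did not overlap in these rows nor in ZAP70 and CD4, which makes 4 of 9 against 13.5% of all genes. Without pool R2 of B7 the groups overlapped in all 9 rows. Tank B7, then its pool R1 alone, stood at 4.32 TPM of Lck, 14.5 of CD3G, 2.33 of ZAP70 and 2.92 of CD4. The highest control tanks were at 6.48, 15.8, 2.45 and 3.24 TPM. Pool R1 of B7 was itself the lowest pool of the stage for Lck. The other plankton tanks lay above every control tank in these 4 rows. Tcrd had the largest difference at this stage, 0.57 ± 0.18 (adjusted p = 0.505), with 1.15, 1.31 and 2.90 TPM in control and 2.65, 3.08 and 3.24 TPM in plankton tanks, and control tank B10 lay within the plankton range. Tcra no longer separated the diets: 5.02, 6.47 and 7.46 TPM in control tanks met 5.28, 7.20 and 13 TPM in plankton tanks (0.29 ± 0.21, adjusted p = 1).

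**Figure D4:**
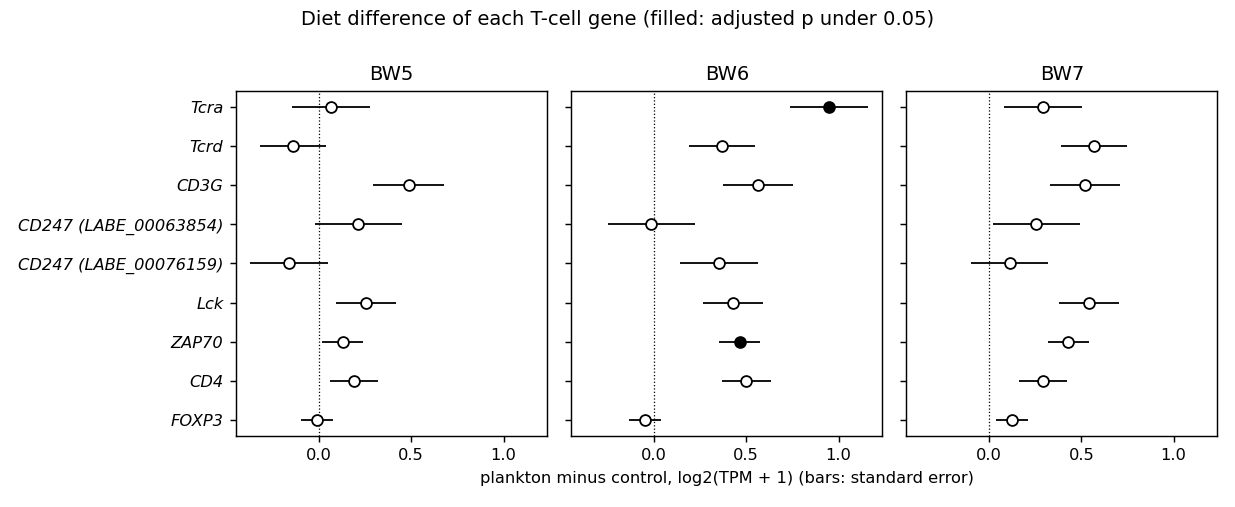
Plankton minus control difference of each row at BW5, BW6 and BW7 in log2(TPM + 1), with its standard error; filled points have an adjusted p under 0.05. The filled points are Tcra and ZAP70 at BW6, and at BW7 all 9 points lie to the right of 0.

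Before BW6 no row was called higher for diet at any stage, at BW2 (9.49% of all genes called higher), BW3 (0.141%), BW4 (0.431%) or BW5 (0.159%). The unadjusted p was under 0.05 for none of the 9 rows at BW2, BW3 and BW4 and for 1, CD3G, at BW5, where 13, 2.67, 2.2 and 2.91% of all genes were higher at that level in the same order of stages. At BW3 the groups did not overlap in 3 of the 9 rows, against 11.6% of all genes. Of these, CD3G (0.142 against 0.470 TPM) and Lck (0.113 against 0.238 TPM) had the lower mean in plankton tanks and ZAP70 (0.0902 against 0.0437 TPM) the higher, and none of the 3 was called (adjusted p = 0.874, 0.978 and 0.993). CD3G stood at BW5 at 0.579, 0.712 and 0.765 TPM in control tanks and at 0.771, 1.48 and 2.10 TPM in plankton tanks (0.49 ± 0.19, adjusted p = 0.705), so that B9 lay just above the control range. CD4 was the other row of the 9 without overlap at BW5, a state in which 14.4% of all genes were. Plankton larvae were older than control larvae at BW3 (18 and 16 dph), BW4 (28 and 26 dph) and BW5 (41 and 36 dph). At these stages diet and age cannot be told apart, nor can dry feed at BW5. Over the mean of all 6 stages, ZAP70 was the 1 row called higher in plankton tanks (0.17 ± 0.05, adjusted p = 0.0174), against 3.25% of genes. That call was lost without tank B6 (adjusted p = 0.12), B7 (0.154), B8 (0.0593) or B10 (0.0608), without pool R2 of B7 at BW7 (0.0526), or with a pseudocount of 0.1 TPM (0.16).

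Whether diet differences at BW6 and BW7 exceeded those at BW2 to BW5 was tested directly. No row passed in limma, against 0.0999% of all genes higher, while 6 of 9 had an unadjusted p under 0.05, as 5.75% of all genes did in that direction. ZAP70 came closest, at 0.42 ± 0.10 (adjusted p = 0.0529), and with 1 tank left out its adjusted p was 0.0658 to 0.399. Tcra passed without tank B5 (0.87, adjusted p = 0.0362). On this scale, rows near 0 TPM at BW2 to BW5 could show only small diet differences. ZAP70 at 0.252 TPM in plankton and 0.139 TPM in control tanks at BW5 differed by 0.13. At BW6, 1.85 and 1.05 TPM gave 0.46. The test therefore cannot tell a larger diet effect from a higher level of the rows.

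Single pools carried much of the spread at BW7. Pool R2 of plankton tank B7 was the highest of the 12 pools for 7 of the 9 rows: CD3G was at 39.7 TPM in it, Lck at 15.9, CD4 at 7.61, ZAP70 at 4.96, Tcra at 14.8, Tcrd at 4.38 and LABE_00063854 at 6.13 TPM. Its sister pool R1 had 14.5, 4.32, 2.92, 2.33, 11.2, 1.78 and 2.44 TPM of the same rows in the same order. The median fold between the pools of B7 over the 9 rows was 2.46, against 1.14 to 1.47 in the other tanks at BW7. FOXP3 did not share this, with 1.73 TPM in R2 and 1.51 TPM in R1. Summed over the 9 rows, R2 of B7 was at 2.10 times the median pool of the stage.

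Other transcripts were high in that pool too. The recombinase genes rag1 and rag2, which cut the receptor genes in developing lymphocytes, stood at 18.9 and 6.19 TPM, the highest of the 12 pools and 3.34 and 2.12 times the stage median. The summed pan-leukocyte markers were at 1.31 times the stage median, the highest of 12, and the neutrophil markers at 1.22 times. The B-cell markers were at 1.05 times and the macrophage markers at 1.10 times, each also the highest of 12. The thymic epithelium list was at 1.10 times, rank 4. The T-cell lists were at 1.52 (receptor-proximal), 1.36 (receptors), 1.29 (cytotoxic), 1.22 (transcription factors) and 1.05 times (downstream, rank 3). Sister pool R1 was the lowest of 12 for B-cell, macrophage and thymic epithelium lists, and at rank 9 for pan-leukocyte and neutrophil markers. The sum of the thymic epithelium list was already at a median of 423.8 TPM in the BW0 pools, so it may not follow the thymus alone. The part of all these transcripts in the difference was not tested. Without pool R2 of B7, the diet differences at BW7 were 0.29 for CD3G and 0.26 for Lck in place of 0.52 and 0.54. The rises from BW6 to BW7 stayed called for CD3G, Lck, CD4, ZAP70, FOXP3 and Tcra, with CD3G at 0.74 (adjusted p = 8.04e-05), and that of LABE_00063854 did not (0.41, adjusted p = 0.0519). With 1 whole tank left out instead, the diet differences at BW7 were 0.42 to 0.59 for CD3G and 0.49 to 0.63 for Lck. Neither was called in any of these fits.

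**Figure D5:**
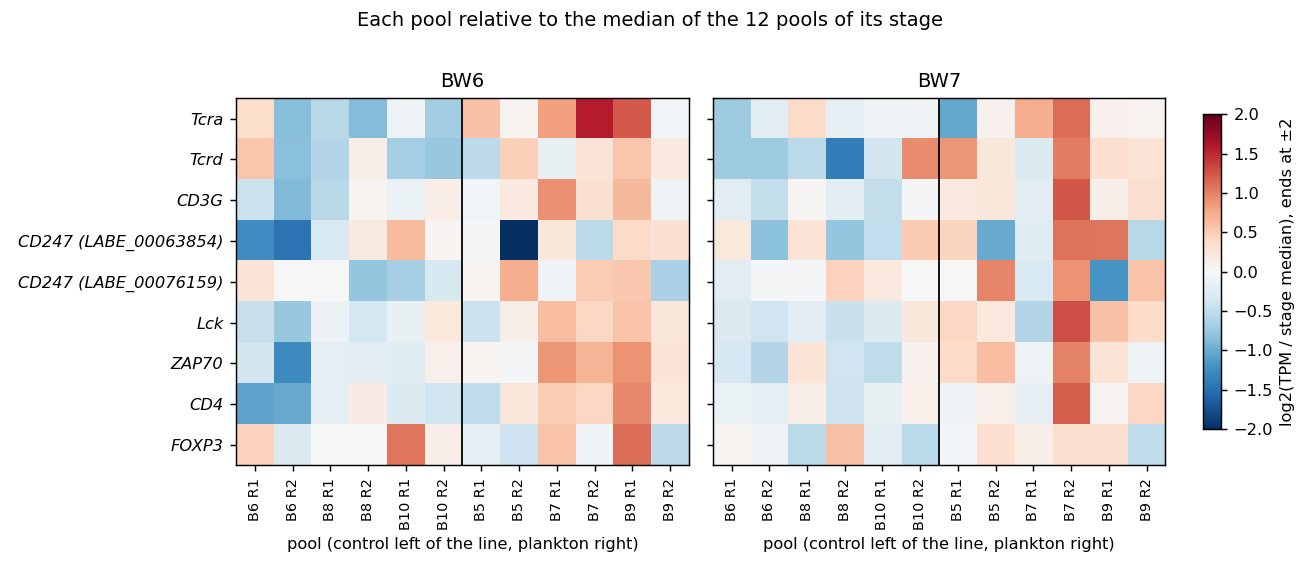
Log2 of each pool's TPM over the median of the 12 pools of its stage, for the 9 rows at BW6 and BW7; colours end at ±2. Column B7 R2 at BW7 is high in nearly every row, and pools B6 R1 and B6 R2 at BW6 are low in CD4 and LABE_00063854.

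Once stage and diet means were removed, the rows still varied together in part. Over the 12 tank libraries of BW6 and BW7, 26 of the 36 pairs of rows had a positive Pearson r, with a median of 0.33. The highest were CD4 with LABE_00063854 (0.89), Lck with LABE_00063854 (0.88) and ZAP70 with CD3G (0.84). The other CD247 row, LABE_00076159, had a negative r with both CD4 (-0.55) and Lck (-0.60). The ties of CD4 and Lck to LABE_00063854 are thus with a row that is uncertain alone, and not with CD247 as a gene. Tcra was weakly tied to Lck (0.31) and more to CD3G (0.58). Tcrd had no r above 0.19 (with LABE_00076159), and its lowest were -0.48 with FOXP3 and -0.32 with CD3G. The CD247 rows were opposed (-0.70). These are descriptions: rows of 1 library share its depth and its pools, and tank B7 at BW7 enters every pair.

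Across all 41 libraries, the named genes whose level was most like the mean profile of the 9 rows were SH2D1A (r = 0.988), skap1 (0.987), Cyth3 (0.986), IL12RB1 (0.984), MYLK (LABE_00063692, 0.983), JAK2 (0.982), V-TCR (0.981), SGK223 (0.980), Traf5 (0.980) and Arhgap25 (0.980). SH2D1A and skap1 encode adaptor proteins of lymphocytes, and IL12RB1 a chain of the interleukin-12 receptor. Any gene that comes up late in development scores high on this measure. SH2D1A, for instance, went from 0.471 TPM at BW5 to 3.63 at BW6 and 6.12 at BW7. With stage and diet means removed, rag1 (0.828) and rag2 (0.798) came first, followed by ppdpfa (0.766), the clock repressor NR1D1 (0.757), KLF13 (0.741), GLUL (0.728), RGS13 (0.724), TRBV12-3 (0.719), ZBTB38 (0.711) and RTTN (0.709). In tank means rag1 was at 1.66 to 4.77 TPM in control and 4.67 to 8.80 TPM in plankton tanks at BW6, and the ranges touched.

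The other genes of the pathway were counted in lists, beside 18.1% of all genes called higher and 24.4% called lower from BW5 to BW6. Of the 25 tested rows of receptor-proximal signalling, 12 were called higher and 2 lower, and the list's median was 0.19 against -0.08 over all genes. TRBC2, a constant region of the beta chain, rose from 3.26 to 23.2 TPM (2.51 ± 0.21), the adhesion receptor CD2 (LABE_00050621) from 1.23 to 6.16 TPM (1.71 ± 0.12) and SH2D1A by 1.61 ± 0.11. Plcg1, a phospholipase that many cell types use, fell from 2.45 to 1.10 TPM, and the adaptor Nck1 from 6.81 to 4.52 TPM. Of 36 rows of downstream signalling, 15 rose and 3 fell (median 0.17). REL went from 2.53 to 4.60 TPM and MALT1 from 3.45 to 5.74 TPM, both parts of the NF-kappaB branch, while Ppp3ca (LABE_00063813) and PPP3CA (LABE_00008591), calcineurin subunits, and Itpkb fell. The PPP3CA call was lost without B5 (adjusted p = 0.188), B6 (0.225), B7 (0.22) or B10 (0.069) and without the pools closer to another group (0.112), and the Itpkb call without B5 (0.0664), B7 (0.0992) or B10 (0.0746).

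Among 12 rows of costimulatory, chemokine and cytokine receptors, 7 rose from BW5 to BW6 and none was called lower, while 1 was lower at an unadjusted p under 0.05, as 29.2% of all genes were (median 0.40). CCR9, the receptor that draws thymocytes to the thymus and T cells to the gut in mammals, went from 0.673 to 3.89 TPM, CCR7 from 0.229 to 1.51 TPM and CXCR3 (LABE_00061772) from 0.521 to 2.05 TPM. Of 26 transcription factor rows, 13 rose, led by Satb1 (1.30 to 3.24 TPM), Runx3 (7.47 to 14.2 TPM) and IKZF3 (0.476 to 1.44 TPM), and 4 fell, led by eomes (3.72 to 2.39 TPM), Tox (6.61 to 4.68 TPM) and BACH2 (1.05 to 0.571 TPM). The Tox call was lost without B5 (adjusted p = 0.0605), B6 (0.0998), B7 (0.15) or B10 (0.0502), and the BACH2 call without B5 (0.2), B6 (0.138), B7 (0.131), B8 (0.0698) or B10 (0.0759). Of 7 cytotoxic effector rows, 5 rose and 1 fell: Faslg went from 2.16 to 4.75 TPM and the perforin rows Prf1 LABE_00053392 and LABE_00039335 from 0.386 to 1.36 and from 0.611 to 1.69 TPM, while Prf1 LABE_00035256 went down from 16.0 to 10.0 TPM.

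Marker lists of other cell types, and of leukocytes as a whole, moved at the same step. The pan-leukocyte list takes in T cells, and the names PTPRC, VAV1 and IKZF1 stand both in it and in the T-cell lists. Neutrophil markers rose in 13 of 14 tested rows and pan-leukocyte markers in 9 of 10, macrophage markers in 14 of 23 with 1 lower, B-cell markers in 6 of 12 and thymic epithelium genes in 5 of 13, with none lower in the other lists. Summed TPM ran over the tanks from 85.5 to 184.1 at BW5 and 236.4 to 286.7 at BW6 for the pan-leukocyte list. For the neutrophil list it ran from 46.9 to 77.6 and 147.8 to 176.0. For the macrophage list it ran from 89.1 to 195.6 and 175.0 to 255.5, and for the B-cell list from 207.6 to 249.6 and 218.9 to 244.0. The B-cell sum was already at a median of 225.3 TPM in the unfed BW0 pools, so it may not follow B cells alone. The mean of the sum at BW6 was 2.02 times that at BW5 for the pan-leukocyte list and 2.59 times for neutrophils. It was 1.68 times for macrophages, 1.42 for thymic epithelium and 1.04 for B cells. For the 9 T-cell rows it was 6.22 times, from a mean sum of only 5.34 TPM at BW5. The T-cell lists differed from those rows, at 1.58 times (receptor-proximal), 1.45 (receptors), 1.31 (transcription factors), 1.04 (cytotoxic) and 1.03 (downstream). By median difference per row, on the scale that understates low levels, the 9 rows were at 1.24. Neutrophil markers were at 1.29 and pan-leukocyte markers at 1.01, so the 9 rows did not stand apart from these lists. The medians were 0.47 for macrophage, 0.25 for B-cell and 0.17 for thymic epithelium lists. No neutrophil or pan-leukocyte row was at 0 in every library of a group at BW5 or BW6, and 6 of 35 macrophage rows were in control tanks at BW5. The part of these cells in the result was not tested.

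From BW6 to BW7 the list counts are read beside 11.6% of all genes called higher and 25.4% called lower, and a median of -0.10 over all genes. Receptor-proximal signalling had 5 rows higher and 4 lower of 25, and downstream signalling 1 higher and 8 lower of 36, with medians of 0.06 and -0.10. SH2D1A (3.63 to 6.12 TPM), Nck1 and CD2 (LABE_00050621) were the largest rises of the first list, and cblb, a brake on receptor signalling, went from 4.42 to 2.48 TPM. Another row of the CD2 name, Cd2 (LABE_00005296), was called lower, though not without B9 (difference -0.41, adjusted p = 0.069). Receptors had 4 rows higher and 1 lower of 12. The lower row was CXCR3 (LABE_00061773), not called without B6 (adjusted p = 0.0707) or B9 (0.147). Both tested rows of IL7R, the receptor for a survival signal of T cells, were among the rises. LABE_00022282 went from 0.497 to 2.15 TPM and LABE_00022264 from 0.718 to 1.34 TPM. Transcription factors had 2 higher and 4 lower of 26, LEF1 going from 12.9 to 8.22 TPM and BCL11B from 8.61 to 5.49 TPM, and cytotoxic effectors 2 higher of 7, with Gzma going from 0.318 to 1.001 TPM. The rise of CD2 (LABE_00050621) was not called without B10 (adjusted p = 0.0643) or with a pseudocount of 0.1 TPM (0.125).

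For diet, none of the 106 rows tested in these 5 lists was called at BW6 or at BW7 in limma, where 0.518% and 0.0726% of all genes were called higher and 0.286% and 0.0136% lower. At an unadjusted p under 0.05, 5 of them were higher and 4 lower at BW6, and 10 were higher and none lower at BW7. Over all genes these shares were 4.44% higher and 3.77% lower at BW6, and 2.67% higher and 1.13% lower at BW7. The summed pan-leukocyte markers lay at 257.8 to 286.7 TPM in control and 236.4 to 261.7 TPM in plankton tanks at BW6, with overlap, beside sums over the 9 rows of 23.7 to 28.4 and 32.8 to 46.6 TPM. At BW7 they lay at 252.9 to 280.9 TPM in control and 327.1 to 340.6 TPM in plankton tanks, without overlap. Sums over the 9 rows were then 37.6 to 44.8 and 54.1 to 74.5 TPM, and pool R1 of B7 alone had 44.9 TPM. Neutrophil markers at BW7 summed to 121.6 to 155.8 and 164.4 to 167.3 TPM. For both marker lists, tank B7 lay above the control range only through its pool R2. Pool R1 of B7 had 261.9 TPM of pan-leukocyte and 146.1 TPM of neutrophil markers, each within the control range. The other plankton tanks lay above the control range in both lists. The part of these cells in the diet differences was not tested.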

How the data were processed

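RNA of pooled whole larvae was sequenced from oligo(dT)-enriched libraries, per the labels' protocols. The deposited values are TPM per gene, made by the authors. The submitters' processing notes name Salmon and edgeR, without versions or roles, and the genome build is not given in the sources used here. Every column summed to 1000000 and 20.7% of the values were 0. Depth is unknown, so no counting error is given.

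The pools of a tank were averaged, giving 36 tank libraries and 5 BW0 pools. The 22028 genes that reached 1 TPM in 3 or more of the 41 resulting libraries entered 1 limma fit with trend over 13 groups of log2(TPM + 1), with 28 residual degrees of freedom and Benjamini-Hochberg adjustment. The tests had been planned for counts or another unit, and limma was used because the values are TPM. A ratio of Tcra to Tcrd was tested by exact sign flips over tanks. A ratio of CD4 to CD8A was not run. The fit was tested on simulated data. Whether BW0 pools and the pools of a tank come from separate groups of larvae is not stated, so p-values measure the spread between these samples.

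Named list genes are the 3 largest called changes per list and direction. The members and lists were chosen with earlier results of these data known. Tank labels recur at each stage. Over 30 pairs of adjacent stages, the deviations of a tank correlated at -0.08 to 0.30 (median 0.02), with 5 pairs above 0.1, so tank was not used as a block. Alternatives were another pseudocount, no filter on low values, median-ratio size factors, a tank block, pools as replicates, only the groups compared, and leaving out tanks or pools. Versions were Python 3.11.15, numpy 2.4.6, pandas 2.3.3, scipy 1.17.1, matplotlib 3.10.9, R 4.3.3, limma 3.58.1 and, for the R package data.table, 1.17.8.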

Additional observations from a re-analysis of the deposited data

Results flagged for a closer look

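A pool was flagged where it stood far above the others by its gap over the range of its group. This held in 20 of the 115 sets formed by a row and a group, which is 17.4%. The cut-off would flag about 1 in 20 sets of normally distributed values. That rate cannot be applied here, because the gap equals the range wherever only 1 pool of a group had any signal. No excess over chance is therefore claimed. At BW7, pool R2 of plankton tank B7 had 39.7 TPM of CD3G, with the next pool at 20.8 TPM. The same pool had 7.61 TPM of CD4, with the next at 4.39 TPM. In control tanks at BW7, pool R2 of B10 had 7.60 TPM of Lck over a next value of 5.57 TPM, and 4.13 TPM of Tcrd over 1.66 TPM.

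At BW5, plankton pool R1 of B7 had 0.586 TPM of ZAP70 and 1.51 TPM of Tcrd, over next values of 0.279 and 0.759 TPM. Control tank B10 at BW5 had 0.994 TPM of Lck in pool R1 and 2.73 TPM of CD247 LABE_00076159 in pool R2, over 0.492 and 1.47 TPM. At BW4, plankton pool R1 of B5 had 1.04 TPM of Tcra over 0.355 TPM, and control pool R2 of B6 had 0.902 TPM of CD247 LABE_00063854 over 0.312 TPM.

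The remaining cases lay under 0.5 TPM. For FOXP3 they were 0.0324 TPM in B8 R1 at BW3, 0.0341 TPM in B9 R1 at BW5 and 0.0697 TPM in B8 R1 at BW5, with every other pool of the group listed at 0. For CD3G they were 0.409 TPM in B10 R1 at BW2 and 0.468 TPM in B7 R1 at BW3. For Tcra they were 0.206 TPM in B9 R2 and 0.458 TPM in B8 R2, both at BW2. Lck had 0.246 TPM in B9 R2 at BW2, ZAP70 had 0.0989 TPM in B7 R1 at BW2, and Tcrd had 0.106 TPM in incubator pool R8 at BW0.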

How the results depend on the processing

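All 9 rises from BW5 to BW6 were called under every alternative that tested the row. Over the 45 results on single rows, 572 of 648 alternative values kept direction and side of the threshold, and 14 of 25 called results did so throughout; the cause of the changes was not tested. Of the 45 list-gene calls, 33 were kept in every alternative. With a pseudocount of 0.1 TPM, the rows called higher numbered 1 at BW2 over BW0 and 2 at BW3 over BW2 (Tcrd added at both), 3 at BW7 over BW6 with 0 lower, 0 for diet at BW6 and 0 for the mean of 6 stages. With size factors, 0 were lower at BW7, 3 were called for the mean of 6 stages and 1 for the later against earlier diet difference. With only the groups compared, 1 was called at BW5 over BW4, 0 lower at BW7, 0 for diet at BW6 and 2 for the mean. Without the filter the mean gave 2 and the later against earlier difference 1. With each pool as a replicate, 1 was called for diet at BW7 (ZAP70), 4 for the mean and 1 for later against earlier. Without the pools whose titles are spaced differently, 1 was called for diet at BW6 and 2 for the mean. Without the pools closer to another group, 4 were called for diet at BW6 and 3 for the mean, and without pool R2 of B7 at BW7 the mean gave 0. Those last exclusions were chosen after seeing the data. From BW3 on, the pools left out as closer to another group were all plankton pools nearest to control pools of their stage.

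Leaving out 1 tank gave 1 to 4 rows higher at BW5, 0 to 1 lower at BW7, 0 to 3 for diet at BW6, 0 to 2 for the mean and 0 to 1 for later against earlier. The Tcra to Tcrd change was then 1.85 to 2.08 from BW5 to BW6 and 0.64 to 1.18 from BW6 to BW7, and 2.08 and 1.02 without the pools closer to another group, each with an exact permutation p of 0.0625, the smallest that 5 tanks allow. With 1 TPM added the first change was 1.03. Diet differences that changed sign were FOXP3 at BW6 (0.0699 without those pools, -0.11 to 0.0373 with 1 tank left out), LABE_00063854 at BW6 (-0.31 to 0.27), LABE_00076159 at BW7 (-0.0597 without pool R2 of B7, -0.0206 to 0.29 with 1 tank left out) and Tcra at BW7 (-0.038 without those pools, -0.038 to 0.57). With tank as a replicate block, 1 row was higher at BW3, 4 at BW5, 9 at BW6 and 7 at BW7, 1 was lower at BW7 and 0 passed for later against earlier diet, as without the block. Size factors moved the median of all genes from -0.37 to -0.05 at BW2 over BW0, from 0.42 to 0.09 at BW3, from -0.12 to 0.00 at BW4 and from -0.22 to 0.02 at BW5. Most values before BW5 are below 1 TPM at unknown depth, and 3 tanks per diet limit the diet tests.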

Other observations

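From BW4 to BW5, where 4 of the 9 rows were called higher, other genes of the T-cell lists moved in both directions. Of the 25 tested rows of receptor-proximal signalling, 6 were called higher and 4 lower, against 10.6% and 39.1% of all genes. TRBC2 went from 1.54 to 3.26 TPM (0.65 ± 0.21, adjusted p = 0.0132 in limma) and ptprc, the leukocyte phosphatase CD45, from 2.61 to 4.42 TPM (0.53 ± 0.14, adjusted p = 0.00308). In the same list NCK2 fell from 9.15 to 5.27 TPM and CSK from 19.7 to 14.7 TPM. The recombinase genes rag1 and rag2 had tank means of 0.0452 and 0.0657 TPM at BW4 and 0.652 and 0.398 TPM at BW5. Downstream signalling had 4 rows higher and 9 lower of 36, and transcription factors 5 and 12 of 26. Receptors had 2 and 3 of 12 and cytotoxic effectors 3 and 0 of 7. Pan-leukocyte markers had 6 higher and 0 lower of 10, macrophage markers 10 and 1 of 23 and B-cell markers 5 and 2 of 12. Neutrophil markers had 4 and 0 of 14 and thymic epithelium genes 4 and 4 of 13. Rises at this step were thus not particular to the T-cell rows.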
